A study of Mus musculus musculus x Mus musculus castaneus with 8 samples.

Results

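The mus and the cas copy of each autosomal gene were compared within the same cells, in untreated tail fibroblasts of a female F1 hybrid of Mus musculus musculus (mus) and Mus musculus castaneus (cas). A gene was included when it lay on chromosomes 1 to 19 and had 20 or more reads assigned to an allele, mus and cas together, in each of both untreated libraries. This held for 8353 of 23266 autosomal genes, and of 24421 genes in all. RNA was sequenced from 8 libraries in 4 groups of 2. All cells were grown for 72 h on 15 cm plates, and additions were made 24 h after plating. The untreated cells received the solvent DMSO alone. The other groups were given 5azadC (5-aza-2'-deoxycytidine, which blocks the methylation of DNA), VX680 (which blocks the Aurora kinases of mitosis) or both drugs, and serve here as 6 further libraries of the same hybrid cells. The labels do not give which parent was mus, whether the cells were one clone, or whether replicates were separate cultures, so every p-value rests on the spread among these libraries and that spread may be technical.

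In an F1 hybrid both copies of a gene sit in the same nucleus and meet the same transcription factors. A difference between their transcript levels is therefore commonly read as a difference carried by the copy itself, in its promoter, enhancers or transcript sequence. Other differences show in the same counts. Imprinted genes are transcribed from the copy of one parent, in female cells one X chromosome is silenced, and a cell can carry unequal numbers of copies of a chromosome or of a stretch of it. Only reads that cover a variant between the genomes can be assigned, so a gene's allelic reads are a part of its reads.

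The untreated libraries held 11169532 and 7256577 reads in genes, of which 26.7% and 26.6% were assigned to an allele. A member had a median of 158 assigned reads in replicate 1 and 95 in replicate 2. All 11 fibroblast markers were detected in both libraries, at a summed 31308 to 33612 CPM (a count scaled to the size of its library). Of 12 keratinocyte markers 1 was detected in both libraries (summed 1.34 to 3.58 CPM), and Krt5, Krt14 and Trp63 were among 7 at 0. Of 12 leukocyte markers 4 were detected (15.3 to 18.9 CPM) and 8 were at 0, Ptprc among them. The endothelial markers Cdh5, Emcn and Kdr were at 0, with 5 of 8 detected (125 to 135 CPM). The other lists summed to 20.1 to 20.4 CPM for skeletal muscle (2 of 9 detected), 33.6 to 35.4 for cartilage (6 of 8), 28.8 to 32.9 for pigment cells (2 of 7) and 169 to 178 for fat cells (5 of 8).

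The 2 alleles of most genes were transcribed at similar levels, and a minority differed widely. The log2 ratio of mus to cas reads was fitted for each gene with edgeR, and a gene was called when the Benjamini-Hochberg adjusted p of edgeR's quasi-likelihood test was below 0.05. Of the 8353 members 3304 (39.6%) were called, against a background of 38.2% of all 10307 genes fitted. DESeq2's Wald test on the same columns called 493 members with mus and 1201 with cas higher. The mus allele was higher in 1013 members (12.1%, background 11.4%) and the cas allele in 2291 (27.4%, background 26.8%). A ratio of 2-fold or more, on the same side in both libraries, was called for 659 members with mus higher (7.89%, background 7.89%) and 1457 with cas higher (17.4%, background 18.7%). Members make up most of the genes fitted, so the 2 sets of shares are close by construction. In 4625 members (55.4%) the alleles lay within 1.5-fold of each other. At the other end, 560 members (6.70%) differed by 8-fold or more, 225 towards mus and 335 towards cas. In 50 members no cas read was counted in either untreated library, and in 48 no mus read.

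The excess of cas calls went with a shift of all members. The median log2 ratio was -0.17 (-0.19 and -0.20 in the separate libraries), with quartiles of -0.74 and 0.26. Of all calls 69.3% had cas higher. When each allele column was given its own TMM scaling factor, which centres the ratio of the libraries, the median moved to 0.04 and the calls to 1521 mus and 1748 cas (53.5% cas). A direction near an equal ratio therefore depends on the scaling, and all ratios below are as counted. Over all member reads the mus share was 47.1% in replicate 1 (exact Clopper-Pearson 95% interval 47.0 to 47.1) and 47.5% in replicate 2 (47.4 to 47.5), intervals that cover counting error only.

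The ratios of most genes were similar in both libraries. In 6186 members (74.1%) the mus shares of the libraries differed by 10 percentage points or less. Across members, which are not independent replicates, the log2 ratios of the libraries had a Pearson r of 0.90 and a Spearman rho of 0.75. The spread of allele counts between the libraries was 2.23 times counting error on average (chi-square per degree of freedom, 8255 members). Its median was 0.988, where counting error alone gives 0.455, so the libraries differed by more than sampling noise. The plot of allele share in each untreated library shows a dense cloud near equality and 2 tight groups at its ends.

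**Figure D1:**
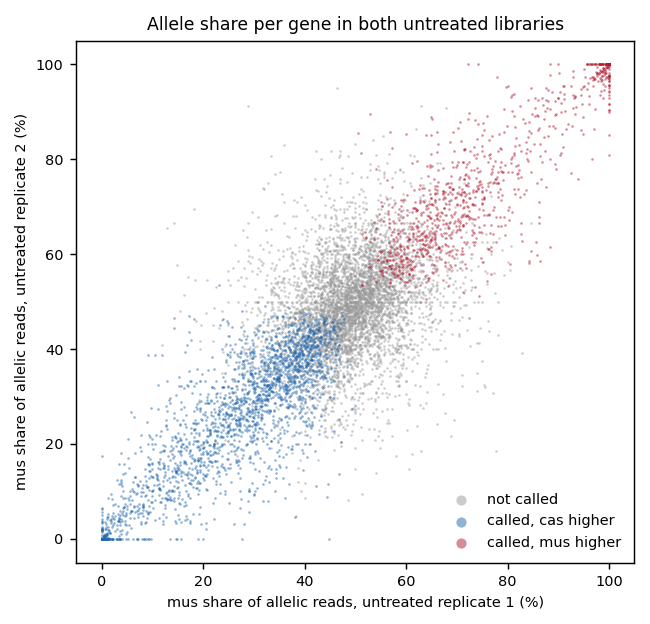
Each point is 1 of 8353 genes, with its mus share (%) in untreated replicate 1 on the x axis and replicate 2 on the y axis. Red marks 1013 genes called with mus higher, blue 2291 with cas higher and grey 5049 not called, and the called genes lie along the diagonal out to 0 and 100%.

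More deeply read genes were called more often, at smaller differences. Members with 20 to 50 reads in the shallower library were called in 28.0% of cases, with a median standard error of 0.49 in log2. The share rose to 34.8% for 50 to 100 reads, 43.4% for 100 to 300 and 57.2% for 300 to 1000. It reached 66.2% of the 219 members with 1000 reads or more, whose median standard error was 0.09. The share called at 2-fold went the other way, from 27.5% in the lowest bin to 18.7% in the highest. The median absolute log2 ratio likewise went from 0.62 to 0.35. A gene with few reads and no call therefore may differ by an amount this depth could not detect.

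Whole chromosomes leaned to one allele. On chromosome 3 the median member had a mus share of 65.4% and 64.5% in the 2 untreated libraries, and 80% of its 401 members had a mus ratio above equality, 236 of them called with mus higher and 44 with cas higher. Chromosome 2 leaned the same way, with medians of 59.6% and 59.3% and 295 mus against 116 cas calls among 649 members. Chromosome 7 leaned to cas, at 38.6% and 38.5%, with 25 mus and 302 cas calls among 608 members. Chromosome 10 did too, at 41.0% and 40.7%, with 19 mus and 214 cas calls among 471.

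The remaining 15 autosomes stayed closer to equality, with median log2 ratios between -0.34 (chromosome 11) and -0.02 (chromosome 12). They held 438 mus and 1615 cas calls in 6224 members. The 4 leaning chromosomes kept their direction in every treated library. The treated medians ran from 62.8% to 64.2% on chromosome 3, from 58.8% to 60.8% on chromosome 2, from 38.5% to 39.7% on chromosome 7 and from 39.1% to 41.2% on chromosome 10. The quartiles of chromosome 3 (0.23 and 1.30 in log2) show that most of its genes were shifted, not a few.

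**Figure D2:**
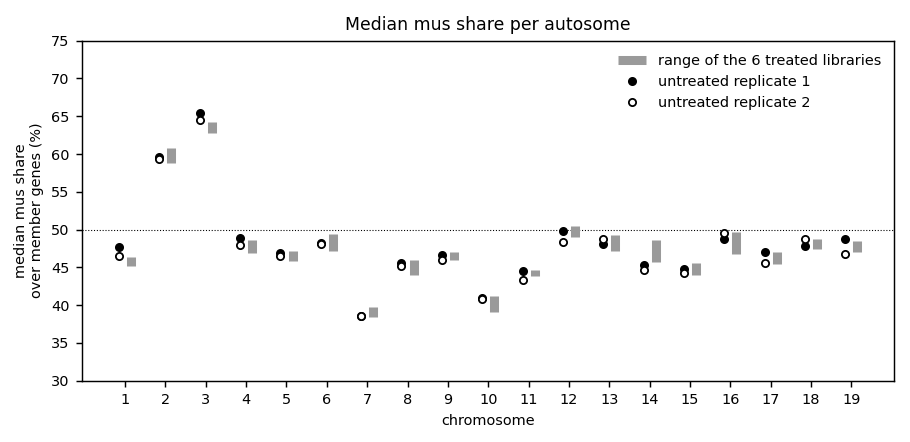
Median mus share (%, y axis) over the member genes of each autosome (x axis), with filled and open circles for untreated replicates 1 and 2 and grey bars for the range of the 6 treated libraries. Chromosomes 2 and 3 lie above 50% and chromosomes 7 and 10 lie lowest, in all libraries.

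Within chromosomes the ratio moved in stretches. Members were placed in their order along each chromosome (8099 of them, 254 were not placed) and cut into 321 windows of about 25. In 15 windows, on 2 chromosomes, the median member was 2-fold or more towards mus. These windows held 375 members (4.63% of those placed) and 39.9% of all 2-fold mus calls. In 17 windows on 7 chromosomes the median was 2-fold or more towards cas. They held 418 members (5.16%) and 18.7% of the 2-fold cas calls. In the 225 windows with a median log2 ratio between -0.5 and 0.5, 17.1% of 5669 members were called at 2-fold. The median share of reads assigned to an allele was 27.0% in the mus windows, 29.2% in the cas windows and 31.0% over all windows.

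The largest such stretch lay on chromosome 2. Its 9 consecutive windows held 225 members with a median log2 ratio of 4.82 and a median mus share of 96.4% and 94.9% in the untreated libraries. Of these members 177 were called with mus higher and 135 of all 225 were 8-fold or more towards mus, while 19 were called with cas higher and 20 lay within 1.5-fold. Window medians ran from 1.20 to 6.33, and from 0.88 to 6.35 over the treated libraries. A little further along the same chromosome, the window from Mapre1 to Cpne1 leaned to cas, with a median of -1.68. On chromosome 3 the longest stretch, Prcc to Vps72 (75 members), had a median of 1.12, and 60 of its members were called with mus higher.

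Stretches towards cas lay on 7 chromosomes, chromosome 2 included. Chromosome 8 held 3 of them, Insr to Col4a2 (25 members, median log2 ratio -1.62), Tnks to Cenpu (25, -1.61) and Lpl to Arhgap10 (75, -1.52, with 19 members 8-fold or more towards cas). On chromosome 7 the stretch from Sae1 to Arhgef1 (50 members) had a median of -2.16. Chromosome 4 held Spen to Mtor (-1.53) and Mib2 to Plekhn1 (-1.29). Others were Hinfp to Sik3 on chromosome 9 (-1.72), Dll1 to Mrps34 on chromosome 17 (-1.40), Npr3 to Eif3h on chromosome 15 (-1.06) and Myadm to Epn1 on chromosome 7 (-1.03). In each of these stretches the windows of every treated library had medians below 0. The plot of the ratio along 4 chromosomes shows the steps between stretches. Copy number and genotype of the stretches were not measured, so a gene's own allelic difference and an imbalance shared by its stretch cannot be told apart from these counts.

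**Figure D3:**
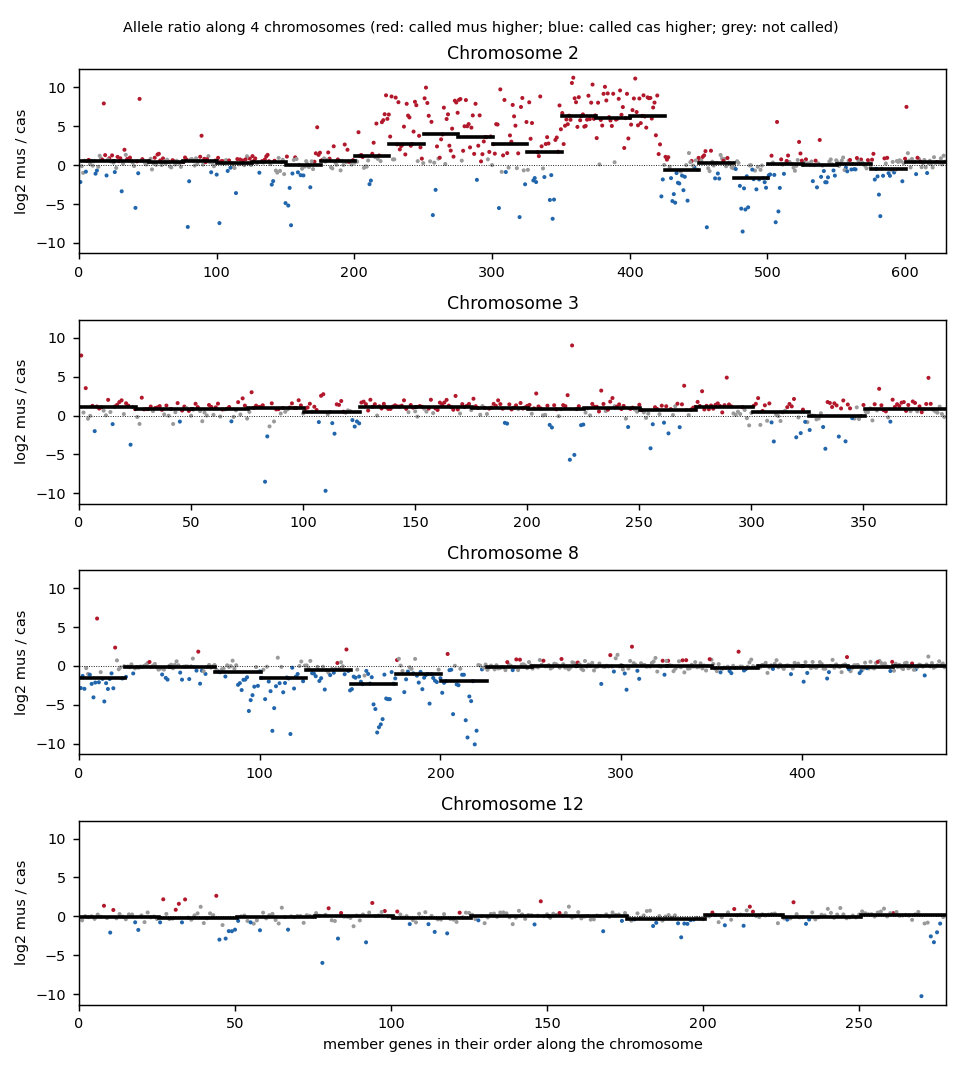
Log2 ratio of mus to cas reads (y axis) of the placed members of chromosomes 2, 3, 8 and 12 in their order along the chromosome (x axis), with red and blue for genes called with mus and cas higher, grey for genes not called, and black bars for the median of each window of about 25 genes. Chromosome 2 has a stretch of 9 windows with medians from 1.20 to 6.33, chromosome 3 is raised along most of its length, chromosome 8 has lowered stretches in its first part, and chromosome 12 (median -0.02) stays near 0.

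For comparison, X-linked genes were read almost wholly from cas, in female cells where one X is silenced. Over 195 X-linked genes other than Xist, mus reads were 3.78% of allelic reads in replicate 1 (exact 95% interval 3.60 to 3.96) and 3.89% in replicate 2 (3.66 to 4.12). X-linked genes were fitted with the others but are not members.

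Several well known genes lie in the chromosome 2 stretch. Fbn1, which encodes the microfibril protein fibrillin-1, had 2387 mus and 30 cas reads in replicate 1 and 1471 and 17 in replicate 2 (log2 ratio 6.35 ± 0.17 SE, adjusted p = 1.95e-31). Thbs1, the matrix glycoprotein thrombospondin-1, had 5983 and 182, and 3951 and 114 reads (5.07 ± 0.09). Both ratios were far above the scatter between the libraries, and their neighbours lay at medians of 5.52 and 2.28. B2m, the light chain of MHC class I, had 877 mus and 4 cas reads, and 407 and 2 (7.68 ± 0.29). Pcna, the sliding clamp of DNA replication, had 393 mus and 2 cas reads, and 205 and 0, a ratio of 299 over both libraries (95% counting interval 82.4 to 2475).

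Some genes of the stretch had no cas read at all, where the ratio is a lower bound taken against 3 counts over both libraries. Secisbp2l (431 and 247 mus reads) was at least 226-fold higher from mus, the metalloprotease gene Adam33 (355 and 271) at least 209-fold, and Eid1 (281 and 141), an inhibitor of differentiation, at least 141-fold. Bub1, a kinase of the spindle checkpoint, had 72 mus and 7 cas reads, and 64 and 5 (3.48 ± 0.45). The lipid synthesis gene Cds2 had 582 and 33, and 321 and 29 (3.83 ± 0.19). Both were less skewed than the medians of their neighbours, 6.23 and 5.11, and relative to these medians their ratios were negative (-2.72 and -1.27). The interquartile ranges of the neighbours were 2.71 for Bub1 and 7.64 for Cds2. The median is therefore not a common level of the neighbours of Cds2, and its negative value is uncertain.

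A few genes in the same stretch ran against it. Pdia3, a disulfide isomerase of the endoplasmic reticulum that helps to load MHC class I, had 2 mus and 315 cas reads in replicate 1 and 2 and 197 in replicate 2 (-6.90 ± 0.36, adjusted p = 3.09e-20). Bub1b, a partner of Bub1 in the checkpoint, had 3 and 324, and 2 and 219 (-6.69 ± 0.35, adjusted p = 1.64e-20). The mus share of Pdia3 stayed at or below 0.529% and that of Bub1b at or below 3.94% in all treated libraries. Their neighbours had medians of 2.75 and 2.28 towards mus.

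To set single genes apart from their stretch, each ratio was also fitted relative to the median of the 24 nearest members, 12 on each side. That median entered as a fixed value, so the spread among the neighbours is not in the standard errors or p-values. This fit was chosen after the data had been seen. It called 1139 members with mus higher and 1552 with cas higher than their neighbours (backgrounds of 12.3% and 19.1% of all genes fitted, 31.4% in either direction). Of the 3304 calls as counted, 2010 (60.8%) were kept in the same direction, 613 of the mus calls (60.5%) and 1397 of the cas calls (61.0%). The other calls were lost or, as for Bub1 and Cds2, had the opposite direction once a gene was compared with its neighbours.

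Many of the placed members lay in even stretches, where the neighbours' median was within 0.5 of equality in log2 and their interquartile range below 1. These 4595 members (56.7%) lay on 18 chromosomes. Their median log2 ratio was -0.10 and 3093 of them (67.3%) were within 1.5-fold. Of these members, 163 stood apart by 2-fold or more towards mus, both as counted and relative to their neighbours, and 377 towards cas (11.8% in all). As counted alone, 14.5% of them were called at 2-fold, against 25.3% of all members. Relative to neighbours alone, 605 mus and 1056 cas calls at 2-fold were made over all 8353 members. The 10 per direction that lay furthest from their neighbours were named, a choice made after the values had been seen.

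Among those with cas higher, Col14a1, a collagen that sits on the surface of collagen fibrils, had 42 mus and 744 cas reads in replicate 1 and 13 and 440 in replicate 2 (-4.48 ± 0.25, adjusted p = 1.33e-19). Its mus share was 5.34% and 2.87% untreated and 6.25% to 20% treated, but the treated libraries held only 10 to 109 allelic reads of it. Col14a1 is not among the genes, given in a later section, whose ratio differed with treatment. Cyb5r3, a reductase of cytochrome b5, had 66 and 1396, and 39 and 980 (-4.51 ± 0.13). Stt3b, a catalytic subunit of the oligosaccharyltransferase, had 53 and 722, and 45 and 427 (-3.53 ± 0.17). Ratios of this size were present in each library. Ptprq, a receptor phosphatase, had a log2 ratio of -3.56 ± 0.33, Poldip3 -4.06 ± 0.23, Ubxn4 -3.34 ± 0.24 and Anks6 -3.23 ± 0.27. The remaining 3, the prothymosin gene Ptma (-5.51 ± 0.17) and the tubulin genes Tubb6 (-3.74 ± 0.12) and Tuba1a (-3.65 ± 0.25), belong to families with close relatives or processed copies, so their counts are uncertain.

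Among those with mus higher, Fmod, a small proteoglycan that binds collagen fibrils, had 313 mus and 39 cas reads, and 194 and 29 (2.88 ± 0.29, adjusted p = 2.65e-11). Ldb1, a bridging factor between enhancers and promoters, had 533 and 119, and 338 and 62 (2.28 ± 0.16). Mt1, the metal-binding protein metallothionein-1, had 311 and 41, and 198 and 49 (2.47 ± 0.25). Its mus share in the treated libraries ran from 61.7% to 88.1%, a wider range than that of Ldb1 (81.8% to 88.4%). Cox7a2l, a factor of respiratory supercomplexes, had a log2 ratio of 3.16 ± 0.34 and the ubiquitin-conjugating enzyme gene Ube2d2a 3.07 ± 0.37.

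The other 5 rest on counts that are uncertain. Rpph1, the RNA of ribonuclease P, had 52265 mus and 1697 cas reads, and 44166 and 1231 (5.05 ± 0.04), the most reads of any 2-fold mus call. Only 1.62% of the reads of Actb (645 and 38, and 400 and 22) and 1.62% of those of Lgals1 (223 and 51, and 121 and 25) were assigned to an allele, so a small part of each transcript stands for the whole. Actb and the ribosomal protein genes Rpl37rt (3.28 ± 0.13) and Rpl32 (2.32 ± 0.21) belong to families with many processed copies in the genome. In the plot of genes apart from their neighbours no treated library crosses 50% for any of the 20.

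**Figure D4:**
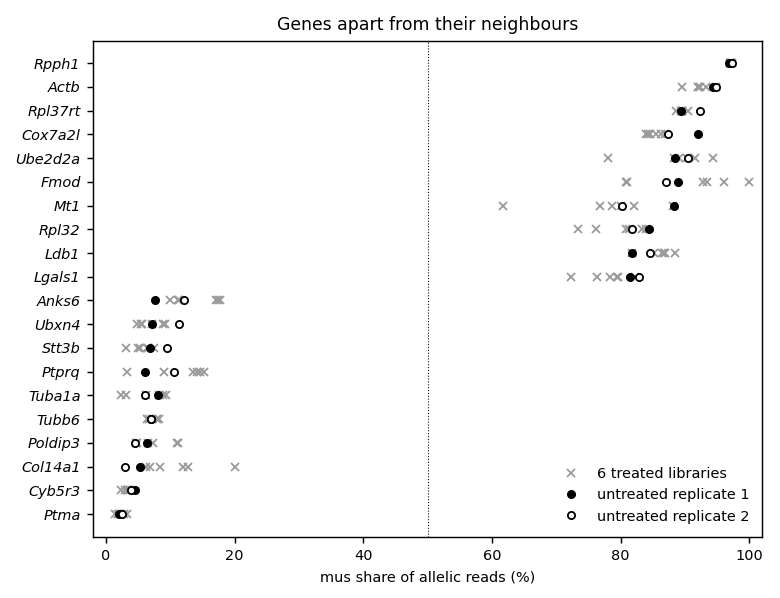
Mus share of allelic reads (%, x axis) of 20 genes in even stretches (y axis), with filled and open circles for untreated replicates 1 and 2 and grey crosses for the 6 treated libraries. Each gene keeps its side of 50% in all 8 libraries, with the widest treated ranges for Mt1, Fmod and Ube2d2a.

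Of the 39 measured genes of the fibroblast matrix list, 5 were called with mus higher and 19 with cas higher, 61.5% in all. Over all members 39.6% were called, and 66.2% of those with 1000 reads or more. The list had a median of 1515 reads per library against 126 over all members. The median log2 ratio was -0.16. With TMM scaling 7 and 17 were called, and relative to neighbours 8 and 17. All 13 calls among 19 collagen chain genes (68.4% of the list) had cas higher, as did 69.3% of the calls of all members. The collagen list had a median log2 ratio of -0.57 (1944 reads per library at the median). Relative to neighbours 11 of those 13 kept their call and direction, with 2 mus and 13 cas calls in all. With TMM scaling 2 were called with mus and 11 with cas higher, at a median of -0.35, so the calls were not all on one side under every scaling. Col5a1, a chain of the fibril-nucleating collagen V, had 3551 mus and 7849 cas reads, and 2451 and 6028 (-1.22 ± 0.05, adjusted p = 9.46e-24). It lies on chromosome 2 outside the mus stretch, among neighbours with a median of 0.42. Col3a1, which forms reticular fibrils, had 2653 and 4232, and 1535 and 2457 (-0.68 ± 0.08).

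The genes of the 2 main chains of basement membrane collagen IV, which lie head to head and share a promoter region, had unlike ratios. Col4a1 had 1750 mus and 5231 cas reads, and 1137 and 3589 (-1.62 ± 0.07, adjusted p = 1.06e-24). Col4a2 had 2963 and 3005, and 2063 and 2160 (-0.04 ± 0.07, adjusted p = 0.663). The mus share was 25.1% and 24.1% for Col4a1 against 49.6% and 48.9% for Col4a2, with no overlap between the genes, and the treated ranges (23.5% to 28.4% and 46.8% to 54.7%) did not overlap either. The difference between the genes was not tested.

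Other genes of the cell surface and secreted space had large ratios. Lrp1, a scavenger and signalling receptor, had 483 mus and 6220 cas reads, and 247 and 4393 (-3.91 ± 0.09, adjusted p = 4.03e-35). Ptn, the growth factor pleiotrophin, had 1481 and 7152, and 814 and 4656 (-2.39 ± 0.08), with neighbours at a median of 0.03. Mmp14, a membrane-bound matrix metalloprotease, had 707 and 1659, and 362 and 1049 (-1.38 ± 0.10). Thy1, a surface glycoprotein used as a fibroblast marker, went the other way, with 672 and 7, and 476 and 11 (5.96 ± 0.21). The neighbours of Thy1 on chromosome 9 had a median of -1.67, so it ran against its stretch as Pdia3 and Bub1b did against theirs. Spp1, the secreted phosphoprotein osteopontin, had 24 and 72, and 6 and 34 (-1.83 ± 0.24).

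Some of the most deeply read members were not called. Lox, which crosslinks collagen and elastin, had 14616 mus and 15101 cas reads, and 9261 and 9947 (-0.08 ± 0.05, adjusted p = 0.266). Malat1, an abundant nuclear RNA, had 10879 and 10783, and 7097 and 6839 (0.03 ± 0.04, adjusted p = 0.588). Hspg2, the basement membrane proteoglycan perlecan, had 4883 and 4631, and 3429 and 3114 (0.11 ± 0.05, adjusted p = 0.124). Col4a2 was the fourth. The standard errors of the 4 ran from 0.04 to 0.07 in log2. With TMM scaling, which moves the median by more than these errors, all 4 were called. Relative to neighbours, Lox (0.33, adjusted p = 6.07e-07), Malat1 (0.31, adjusted p = 4.19e-08) and Col4a2 (0.24, adjusted p = 0.00382) were called with mus higher.

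The 2 lists of imprinted genes had the largest medians of all lists, 5.60 and -3.42 in log2, and kept their sides relative to neighbours (5.93 and -3.07). All 6 measured genes of the list of paternally expressed genes were called. Peg10, derived from a retrotransposon and needed in placenta, had 600 mus and 12 cas reads, and 408 and 8 (5.64 ± 0.23, adjusted p = 5.34e-25). Sgce, its neighbour, had 183 and 139 mus reads and no cas read, at least 107-fold. Plagl1, a zinc finger factor, had 170 and 133 mus reads and no cas read, at least 101-fold. Peg13 had 144 and 3, and 104 and 2 (5.56 ± 0.54). Kcnq1ot1, an antisense RNA of the Kcnq1 locus, had 327 and 5, and 254 and 8 (5.45 ± 0.31), counts that may include reads of the overlapping gene since the use of strand in counting is not given. Impact was the exception, with 58 and 101, and 36 and 58 (-0.75 ± 0.27, adjusted p = 0.0229), a ratio close to its neighbours' median of -0.78.

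The list of maternally expressed genes leaned to cas. Grb10, an adaptor of growth factor receptors, had 5 mus and 508 cas reads, and 3 and 306 (-6.62 ± 0.31, adjusted p = 2.14e-22). Igf2r, the receptor that clears Igf2, had 5 and 548, and 7 and 285 (-6.07 ± 0.27, adjusted p = 2.57e-23). Osbpl5, imprinted in placenta, had 129 and 245, and 100 and 151 (-0.77 ± 0.17, adjusted p = 0.0002). Its neighbours had a median of -0.59, and it was not called relative to them (adjusted p = 0.466) or to the median of its chromosome. Copg2 was not called, with 74 and 31, and 30 and 35 (0.56 ± 0.43, adjusted p = 0.336), and its libraries lay on opposite sides of equality. Thus 5 of 6 paternally expressed genes had nearly all reads from mus, and 2 of 4 maternally expressed genes nearly all from cas. The treated libraries kept these sides, with Grb10 at 0% to 2.34% mus and Peg10 at 97.4% to 99.6%.

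Families with many near-identical copies had large ratios in both directions. Of 53 cytosolic ribosomal protein genes 21 were called with mus and 24 with cas higher, with a median absolute log2 ratio of 2.02 against 0.50 over all members. Of 51 clustered histone genes 20 were called with mus and 28 with cas higher (median absolute 1.95). These calls are 84.9% of the ribosomal and 94.1% of the histone list, against 39.6% of all members. Both directions were called in similar numbers under TMM scaling too, 22 and 23 of the ribosomal and 21 and 24 of the histone genes. Rps15 had 1309 mus and 218 cas reads, and 690 and 83 (2.78 ± 0.12). Hist4h4 had 2161 and 6, and 1209 and 4 (8.35 ± 0.20), while Hist1h2ae had no mus read and 271 and 186 cas reads, at least 152-fold. A read that fits several copies can be assigned to the wrong gene, and the way such reads were handled is not given in the sources used here. The part of this in the ratios was not tested.

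The same holds for single genes with close relatives. Tubb5, a beta tubulin, had 27 mus and 4777 cas reads, and 25 and 3056 (-7.21 ± 0.11). Ftl1, the ferritin light chain, had 2184 and 165, and 1509 and 41 (4.28 ± 0.20), and the actin-severing protein gene Cfl1 had 2314 and 695, and 1494 and 437 (1.75 ± 0.07). Rprl3, a gene like that of the ribonuclease P RNA, had 24577 and 372, and 19131 and 271 (6.09 ± 0.05). The histone genes Hist1h2an (5.28 ± 0.17) and Hist1h4i (120 mus and 3763 cas reads, and 74 and 2435) had ratios in opposite directions, and the mus share of Hist1h4i was 40.0% in 1 library of 5azadC and 49.0% in 1 of VX680, but 2.01% to 3% in the other 4 treated libraries. The pseudogene Atp6v0c-ps2 had no mus read and 222 and 142 cas reads, at least 121-fold. Each of these genes is reported as uncertain.

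In clusters of developmental genes few members were called, 16.1% of the protocadherins and 16.7% of the Hox genes against 39.6% of all members. Of 31 clustered protocadherins, cell adhesion genes that share constant exons in the gamma cluster, 3 were called with mus and 2 with cas higher, and the median absolute log2 ratio was 0.16. Pcdhgc3 had 305 mus and 815 cas reads, and 196 and 577 (-1.48 ± 0.12), and Pcdhga7 had 531 and 262, and 339 and 188 (0.94 ± 0.14), counts that can share reads through those exons. The same can hold for other genes of the gamma cluster, so the share of protocadherins called is uncertain. Of 12 Hox genes, which set position along the body, 2 were called, both with cas higher, and 1 with TMM scaling. The Hox genes had a median of 87 reads per library, against 126 over all members, and a median log2 ratio of -0.35, further from 0 than the -0.17 of all members. Hoxa11 had 7 and 29, and 7 and 16 (-1.64 ± 0.52, adjusted p = 0.0103), and Hoxa10 had 46 and 93, and 34 and 57 (-0.89 ± 0.31, adjusted p = 0.0212). All 12 lay in even stretches.

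Among genes of cell division, 6 of 35 mitosis and spindle genes were called with mus and 11 with cas higher, and 2 and 8 of 37 replication genes. These are 48.6% and 27.0% of the lists, against 39.6% of all members (12.1% mus and 27.4% cas). With TMM scaling these counts became 8 and 7, and 6 and 6, so neither list leaned to an allele under every scaling. Mcm6, a subunit of the replicative helicase, had 9 mus and 781 cas reads, and 2 and 414 (-6.74 ± 0.25, adjusted p = 1.9e-26), among neighbours with a median of -0.15. Pkmyt1, a kinase that holds Cdk1 inactive, had no mus read and 262 and 178 cas reads, at least 147-fold. It lies in the cas stretch from Dll1 to Mrps34, among neighbours with a median of -1.67. All 8 calls among 23 p53 targets had cas higher, against 1 mus and 7 cas with TMM scaling and 1 and 6 relative to neighbours. The share called, 34.8%, was near the 39.6% of all members, of whose calls 69.3% had cas higher. Mdm2, which drives the degradation of p53, had 2 and 70, and 0 and 44, a cas to mus ratio of 57.0 over both libraries (counting interval 15.4 to 476). Ei24 had 41 and 247, and 33 and 156 (-2.43 ± 0.19).

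Genes of immunity and stress were called in both directions, as were members at large (12.1% mus and 27.4% cas higher, 39.6% in all). The shares called were 46.2% of interferon-stimulated, 71.4% of antigen presentation, 58.3% of secreted inflammatory and 58.3% of xenobiotic and glutathione genes. Of 13 interferon-stimulated genes 4 were called with mus and 2 with cas higher (5 and 2 with TMM scaling). Ifit2, which binds viral RNA, had 149 mus and 4 cas reads, and 58 and 1 (5.31 ± 0.47, adjusted p = 5.59e-13). Trim25 had 19 and 140, and 14 and 62 (-2.58 ± 0.27). Of 7 antigen presentation genes 2 were called with mus and 3 with cas higher (2 and 2 with TMM scaling). Of 12 secreted inflammatory genes 3 and 4 were called (6 and 4). In the xenobiotic and glutathione list 5 and 9 of 24 were called, and 6 and 5 with TMM scaling. Gsr, which regenerates glutathione, had 36 and 280, and 38 and 196 (-2.67 ± 0.20). Gss, which makes it, had 12 and 126, and 13 and 94 (-3.12 ± 0.31). Both lay among neighbours with medians of -2.11 and -1.56 towards cas.

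Metabolic and transport genes were called in both directions, as were members at large (12.1% mus and 27.4% cas higher, 39.6% in all). The shares called were 53.2% of respiratory chain, 50% of cholesterol synthesis and 36.8% of solute carrier genes. Of 47 respiratory chain genes 12 were called with mus and 13 with cas higher, against 15 and 7 with TMM scaling. Atp5g3, a subunit of the ATP synthase ring in the chromosome 2 stretch, had 153 mus and 2 cas reads, and 77 and 1, a ratio of 76.7 (counting interval 25.9 to 374). Ndufa11 of complex I had 15 and 215, and 6 and 100 (-3.90 ± 0.34). Of 22 cholesterol synthesis genes 2 were called with mus and 9 with cas higher, and 6 and 5 with TMM scaling. Among them were Srebf1, a master regulator, at -1.44 ± 0.18 and Pmvk, a mevalonate pathway kinase, at 2.52 ± 0.35. Of 125 solute carriers 12 and 34 were called, and 17 and 27 with TMM scaling. The choline transporter gene Slc5a7 had 4 and 314, and 5 and 196 (-5.77 ± 0.31).

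In the remaining lists, 11 of 187 Zfp zinc finger genes were called with mus and 40 with cas higher (27.3%, with a median of 81 reads per library), and 14 and 31 with TMM scaling. Zfp367 was at -4.69 ± 0.26, and Zfp365 had no mus read and 93 and 66 cas reads, at least 53-fold. Of 19 housekeeping genes often used as references, 3 and 12 were called, and 3 and 9 with TMM scaling. Of 13 smooth muscle contractile genes 2 and 5 were called (4 and 4 with TMM scaling), among them the tropomyosins Tpm2 (-3.45 ± 0.16) and Tpm4 (-2.48 ± 0.11). Of 9 small nucleolar RNA host genes 2 and 5 were called (2 and 4 with TMM scaling), among them Snhg5 (-2.46 ± 0.33) and Snhg9 (-2.70 ± 0.45). The shares called were 78.9% of the housekeeping, 53.8% of the smooth muscle and 77.8% of the host genes, against 39.6% of all members.

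The 5 calls among marker genes of other cell types had cas higher, as did 69.3% of the calls of all members. Eng of endothelium was at -4.89 ± 0.38, Sox9 of cartilage at -2.50 ± 0.43, and Lyz2 of myeloid cells at -2.67 ± 0.57. The fat cell markers Lpl, at -2.99 ± 0.21, and Cebpa, at -1.56 ± 0.28, complete the set. Relative to its neighbours Cebpa was not called (adjusted p = 0.142). Of 9 fibroblast markers 3 were called with mus and 5 with cas higher (3 and 3 with TMM scaling). That is 88.9% of the list, at a median of 1873 reads per library, against 39.6% of all members. No keratinocyte, skeletal muscle or melanocyte marker reached 20 reads in each library. The part of other cell types in the ratios was not tested.

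**Figure D5:**
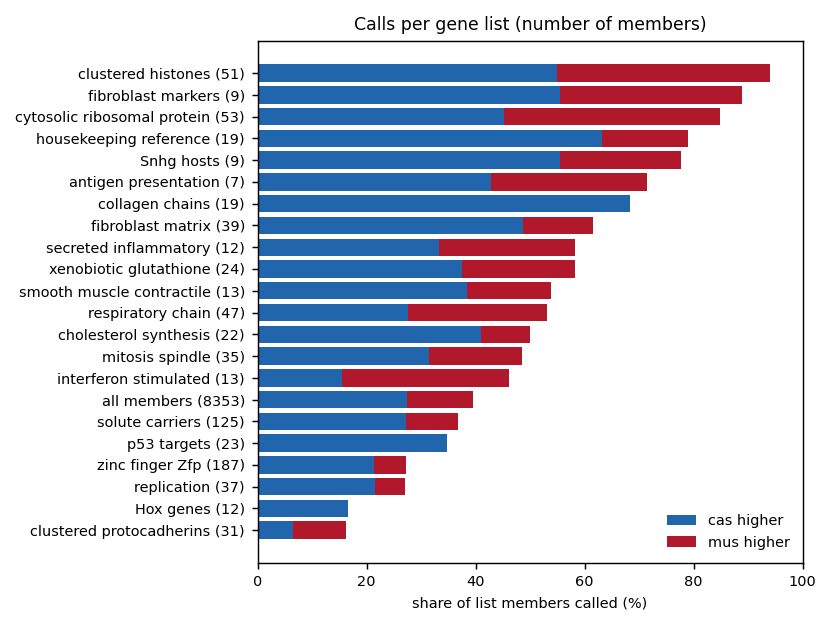
Share of the members of each gene list (number in parentheses) called with cas higher (blue) and mus higher (red), in percent on the x axis, for lists with 7 or more members and for all 8353 members. Clustered histones and ribosomal proteins lie near the top with both colours, collagen chains have cas calls only, and Hox genes and clustered protocadherins lie lowest.

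Some of the largest ratios belonged to single genes outside these lists. Scpep1, a serine carboxypeptidase, had 11 mus and 2544 cas reads, and 10 and 1545 (-7.58 ± 0.18, adjusted p = 5.57e-34). Ctsl, the lysosomal protease cathepsin L, had 19 and 1309, and 12 and 853 (-6.11 ± 0.18). Srrm2, a splicing factor, had 34 and 1423, and 32 and 1066 (-5.22 ± 0.16), and Cherp, an RNA-binding protein, had 13 and 382, and 14 and 252 (-4.53 ± 0.25). Of these, the neighbours of Srrm2 leaned most to cas (median -2.06).

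The treated libraries gave the same measure in cells the calls did not use for their direction, although they share the estimate of spread. Of 3046 called members with 20 or more allelic reads in all 6 treated libraries, 2644 (86.8%) lay on the same side in every one. Of the 2-fold calls 1728 of 1867 (92.6%) did. Of members not called, 991 of 4423 (22.4%) lay on the side of their untreated ratio in all 6. The allele that was higher in untreated cells was thus mostly higher under either drug, while the size of some ratios differed with treatment, as given after this section.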

How the data were processed

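Trizol-extracted total RNA went into directional (dUTP) libraries, per the labels' protocols. Per the submitters' processing notes the build was mm9 and the tools TopHat2 2.0.10, HOMER 4.8 and edgeR, with no role or order. The authors deposited raw counts per gene for the mus and the cas allele and raw composite counts; mus and cas counts added up to the deposited total in every case. The composite table deposited by the authors also holds a length column (other: gene length in bases), which was not used. How variants were called, whether reads were mapped to one or both genomes and how reads with several positions were treated is not given in the sources used here. Normalized tables and the authors' drug comparisons were not used here. No coordinates are given, since the annotation is of another build; gene order came from GENCODE M21 (GRCm38). In 5 genes an untreated library held more allelic than composite reads.

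Counts were fitted with edgeR 4.0.16 in R 4.3.3 (quasi-likelihood F test, Benjamini-Hochberg adjustment over 10307 genes) on 16 allele columns: a term per library, a mus term per group, and the log of each library's allelic total as offset for both alleles. Genes had a mean of 10 or more allelic reads per library, or 20 or more in each untreated library. The standard error is the size of the log2 ratio divided by the square root of F. The fit was tested on simulated data. A gene with no read of an allele has a lower bound against 3 counts over both libraries; with 1 to 3 reads the ratio carries its counting interval. Intervals are at 95%.

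Members and gene lists were chosen with earlier results of these data known. Named genes, 96 in all, are the 8 largest ratios per direction (100 or more reads, 10 per allele, in each library), 3 per direction with under 10 reads of an allele, the 4 most read called at 2-fold per direction, the 4 most read not called, up to 2 per list with the smallest p at 1.5-fold or more, imprinted genes with 50 or more reads, and 10 per direction in even stretches, chosen after the values were seen. A few items are not reported here. Alternatives were DESeq2 1.42.0, TMM and other size factors, other read minimums, other sets of genes or columns, a replicate block, each library left out and, added after the data were seen, ratios relative to neighbours or to the chromosome.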

Additional observations from a re-analysis of the deposited data

Results flagged for a closer look

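In 9 of the 96 named genes the mus to cas ratio of a treated group differed from that of untreated cells, by the interaction of allele and treatment in edgeR's quasi-likelihood fit (288 such tests among the named genes, adjusted by Benjamini-Hochberg over all genes fitted, 2 libraries a group). The 15 differences are given in log2, treated minus untreated. The share of all fitted genes with such a difference is not given here, so 9 of 96 cannot be set against it. Many named genes were chosen by their untreated ratios, and the same values enter each difference. What that choice adds to a move towards equality was not tested.

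Ifit2, the interferon-stimulated gene with nearly all untreated reads from mus, was less skewed with 5azadC, by -4.00 (adjusted p = 9.8e-05), and with both drugs, by -4.22 (adjusted p = 0.00012). Its mus share was 97.4% and 98.3% untreated, 70.4% and 72.2% with 5azadC, and 66.7% and 68.9% with both, with no overlap. Thy1 was less skewed to mus with VX680, by -1.68 (adjusted p = 0.0024), and with both drugs, by -1.89 (adjusted p = 0.00029). Its share was 99.0% and 97.7% untreated and 93.1% and 95.7% with both.

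Spp1 moved from cas towards equality in each treated group, by 1.24 with 5azadC (adjusted p = 0.019), 1.74 with VX680 (adjusted p = 0.00011) and 1.37 with both (adjusted p = 0.0035). Its mus share rose from 25% and 15% untreated, on 96 and 40 reads, to 47.9% and 49.1% with VX680. Lrp1 moved the same way, by 0.94 with VX680 (adjusted p = 2.7e-07) and 1.10 with both (adjusted p = 1.41e-08), from shares of 7.21% and 5.32% to 13.1% and 12% with both.

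Lox, not called in untreated cells, leaned to cas with both drugs, by -0.72 (adjusted p = 1.41e-08), with shares of 49.2% and 48.2% untreated and 37.6% and 35.4% treated. Malat1 moved by -0.25 with VX680 (adjusted p = 0.031) and -0.34 with both (adjusted p = 0.00055). Ptn moved by -0.55 with VX680 (adjusted p = 0.0086). Genes with close relatives also differed, Hist1h2an by 1.54 with 5azadC (adjusted p = 0.0075) and Rprl3 by -0.31 with both drugs (adjusted p = 0.031). What sets these differences was not tested.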

How the results depend on the processing

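The counts of calls kept their order, more cas than mus, under every alternative run. DESeq2's Wald test called 493 members with mus and 1201 with cas higher, against 1013 and 2291, so the number of calls depends on the tool; its median ratio of -0.18 was close. TMM per allele column gave 1521 mus calls, 1748 cas calls and a median log2 ratio of 0.041, which follows from its centring of each column. A minimum of 50 reads, which leaves fewer genes, gave 434 mus calls at 2-fold and a median of -0.19. Relative to neighbours and to the chromosome the medians were -0.0025 and -0.00020, by construction, and relative to neighbours Cds2 (-1.27), Bub1 (-2.72) and Impact (0.032) changed sign, Osbpl5, Cebpa and Hoxa10 lost their call, and Lox, Malat1 and Col4a2 gained one. Leaving out single libraries gave 702 to 1039 mus and 1634 to 2325 cas calls, 556 to 667 and 1300 to 1465 at 2-fold, and medians from -0.20 to -0.17; with 1 untreated library left, it is assumed to vary like the other groups. The pooled mus share of 47.3% was 46.6% as a median over members and 45.7% without the 100 most read. A replicate block gave 994 mus and 2277 cas calls and kept the call of all 96 named genes. Correlations of same-numbered deviations in the allele ratio lay between -0.025 and 0.042. What both alleles of a library share cancels in that ratio, so these values cannot show whether replicate numbers pair the libraries. DESeq2 did not call 9 named genes that edgeR called (Hist1h2ae, Pkmyt1, Atp6v0c-ps2, Osbpl5, Impact, Plagl1, Sgce, Hoxa11 and Hoxa10). Without untreated replicate 1 the calls of Osbpl5, Impact, Hoxa11 and Hoxa10 were lost, and without replicate 2 those of Impact and Hoxa10. The cause was not tested. Depth limits the genes with under 50 reads most, with a median standard error of 0.49 in log2.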
